A study of Mus musculus with 6 samples.

Results

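The 32 genes described here are mouse nuclear receptors other than the PPAR, RXR, thyroid hormone, ERR, glucocorticoid and REV-ERB receptors. They were chosen by name and not by a measured value, but with earlier results of these data known. They are 32 of the 21827 protein-coding genes of the GENCODE annotation of mm10 that were counted as background. Open chromatin was mapped by ATAC-seq in adipocytes that had been differentiated in culture for 7 days, with 2 libraries each of beige, white and brown adipocytes. All cells came from male wild-type C57BL/6J mice of 3 to 4 weeks, as stromal vascular fraction of inguinal fat for the beige and white cultures and of brown adipose tissue for the brown cultures. Beige and brown media held 5 μM dexamethasone, 0.5 mM IBMX (a phosphodiesterase inhibitor that raises cAMP), 1 nM T3 and 1 μM rosiglitazone, a PPARγ agonist, and afterwards insulin, T3 and rosiglitazone. White medium held 1 μM dexamethasone and 0.5 mM IBMX without T3 and rosiglitazone, and afterwards insulin alone. White therefore differs from beige by medium and brown differs from beige by depot, so that depot and medium cannot be told apart between white and brown. The brown libraries also have titles of another form and are not described in the study. Any difference in handling between them and the other libraries cannot be told apart from depot.

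Nuclear receptors are transcription factors, most of which bind a lipid-soluble ligand such as a retinoid, steroid, oxysterol, bile acid or vitamin D. They bind DNA through copies of the motif AGGTCA or a relative of it, alone or as pairs, and recruit coactivators or corepressors. In fat, members of the family govern adipocyte differentiation, lipid storage and thermogenesis, and the orphan NR4A receptors are known as immediate-early genes induced by cAMP.

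For each library the authors deposited 1 list of MACS2 peaks, and the lists held 109143 to 127490 peaks. A promoter was called open in a library if a peak summit lay within 1 kb of a start site of the gene. Peaks of all 6 lists were merged into 194496 regions, 171946 of which were distal (strongest summit over 1 kb from every protein-coding start site). A distal region was assigned to a receptor gene if its summit lay inside the gene or within 50 kb of it, which places the region near the gene but does not show that it acts on it. Fold enrichment is relative to the background of its own library and was only ranked within its list, as a percentile. The −log10 q of a summit is given to show how far a peak lay above the authors' threshold, and neither value is read as a stronger signal in one library than in another. The median −log10 q of a list was 9.18 to 9.39 in white and in brown replicate 2 and 11.2 to 12.5 in the other 3 libraries, so a missing peak does not show closed chromatin. In bulk libraries, a site open in fewer cells and a site less open in every cell cannot be told apart. With 2 libraries a condition, an exact permutation test cannot give a two-sided p under 0.33, so no test between conditions was made and no count below has a p.

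The cells were checked by promoter peaks at marker genes. All 8 adipocyte markers, Adipoq and Fabp4 among them, were open in all 6 libraries. Some of these peaks lay near the threshold. The −log10 q at Adipoq was 3.22 in beige replicate 1 and 4.88 to 27.5 in the other libraries, and at Plin1 it was 5.51 to 24.2. Of 6 macrophage markers, Ptprc, Spi1 and Csf1r had no promoter peak in any library, Lyz2 had one in brown replicate 1, and Cd68 and Adgre1 were open in all 6. The Ucp1 promoter had a peak in both brown libraries (−log10 q 3.91 and 2.97) and in no beige or white library, and the Zic1 promoter had one in both brown libraries (25.5 and 32.8) and in beige replicate 2 (7.89). The brown adipocyte markers Prdm16, Ebf2 and Cidea were open in all 6, white included. Of 4 endothelial markers, Kdr (−log10 q 20.1 to 29.9) and Pecam1 (10.5 to 30.1) were open in all 6, Tie1 in 2 libraries and Cdh5 in none, and 3 of 4 progenitor markers were open in all 6. The part of other cell types in the results below was not tested.

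The promoters of 23 of the 32 receptors were open in all 6 libraries, against 62.4% of all protein-coding genes. Those of 6 receptors were open in none, against 28.5%, and these were Nr1h5, Nr1i3, Hnf4a, Nr2e3, Nr5a1 and Nr0b2. None of the 32 promoters was open in both libraries of one condition and neither library of another, a pattern found at 1.85% of all genes. The other 3 promoters, those of Nr1i2, Nr2e1 and Nr0b1, had peaks in some libraries only, without following the conditions. The 14 nuclear receptors outside this set, among them Pparg, Rxra, Thra and Nr3c1, were open in all 6.

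The promoters of the 23 open receptors ranked lower in their lists than those of other genes. Their median percentile was 68.8 to 78.8 in the 6 libraries, and the median over the 13622 genes with a promoter peak in all 6 was 85.6 to 90.7. The highest were Rarb, at 88.1 to 96.8, and Nr4a2, at 87.4 to 96.5. The lowest were Nr2f1, at 10.7 to 34.3, and Nr2f2, at 3.6 to 10.6 in 5 libraries and higher in white replicate 1. Receptors open in all 6 libraries had promoters richer in CpG than those open in none. The ratio of observed to expected CpG in RefSeq's GRCm38.p6 promoters had a median of 0.65 over 22 of the former and 0.16 over 5 of the latter, with 30 of the 32 genes matched, and over all genes these medians were 0.79 and 0.16.

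**Figure D1:**
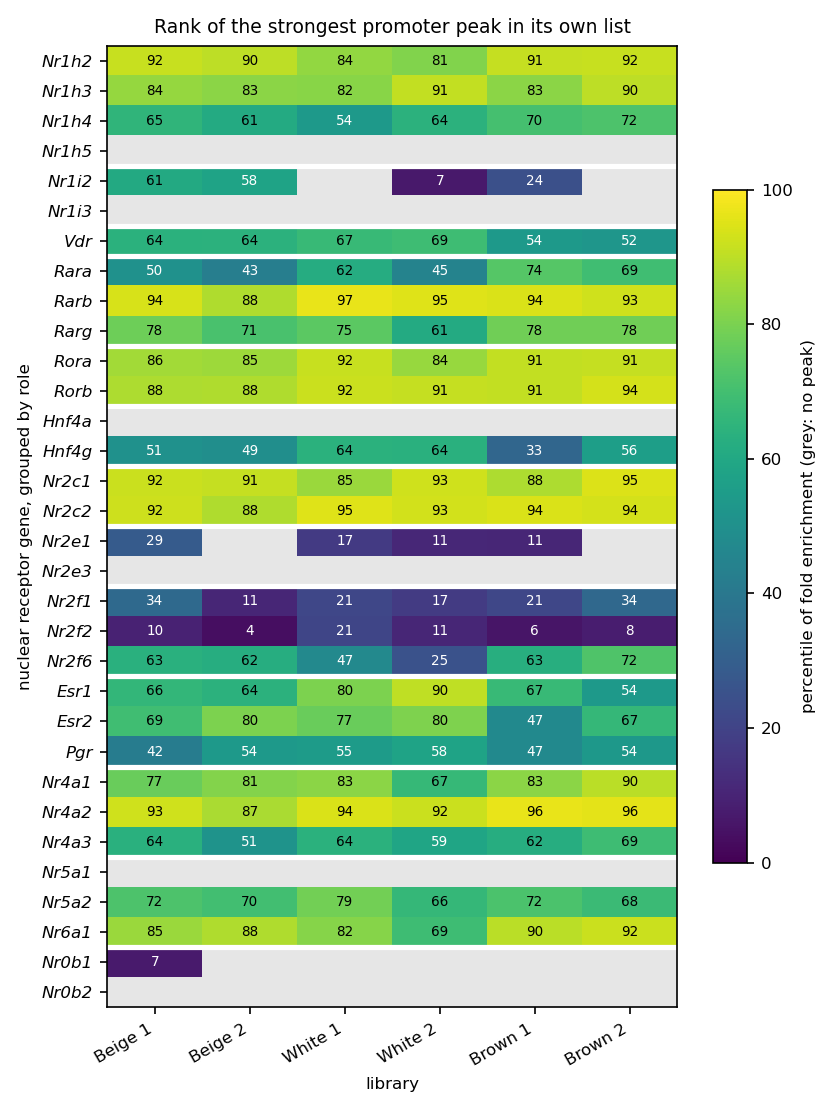
Percentile of the strongest promoter peak's fold enrichment within its own list (colour and number, 0 to 100) for the 32 genes (rows, grouped by role) in the 6 libraries (columns), with grey where no peak was called. At Rara and Rora the strongest peak lay at different start sites in different libraries. The 23 filled rows run across all 6 columns, 6 rows are grey throughout, and no row is filled for 1 condition alone.

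Within reach of the 32 genes lay 586 distal regions, 300 of them inside the gene. Nr5a1 and Nr6a1 are neighbours, and 10 regions were in reach of both. All 6 libraries had a peak in 172 of the 586 (29.4%), against 25.9% of all distal regions, and 204 (34.8%) had a peak in 1 library only, against 39.9%. Regions with peaks in both libraries of some conditions and neither library of the others numbered 37 (6.31%), at 20 of the 32 genes. Their background is given class by class below, and none was made for the count of genes. The regions left over had other patterns.

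Of these 37, 13 (2.22%) had a peak in beige alone, against 2.06% of all distal regions. Another 8 (1.37%, against 1.34%) had one in beige and brown but not white, and 7 (1.19%, against 1.21%) in beige and white but not brown. White alone and brown alone had 4 each (0.683%, against 1.3% and 0.954%), and white and brown without beige had 1 (0.171%, against 0.256%). No share stood far above its background, and that of white alone, on 4 regions, lay below it, so these counts are no result about the receptors and the regions are described below singly. The counts rest on requiring both libraries. With beige replicate 1 or 2 left out, beige alone came to 55 or 43. Without white replicate 1 or 2, white alone came to 32 or 55, and without brown replicate 1 or 2, brown alone came to 31 or 32. Leaving out white replicate 1 raised beige and brown without white to 24, leaving out brown replicate 1 raised beige and white without brown to 20, and leaving out beige replicate 2 raised white and brown without beige to 6.

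**Figure D2:**
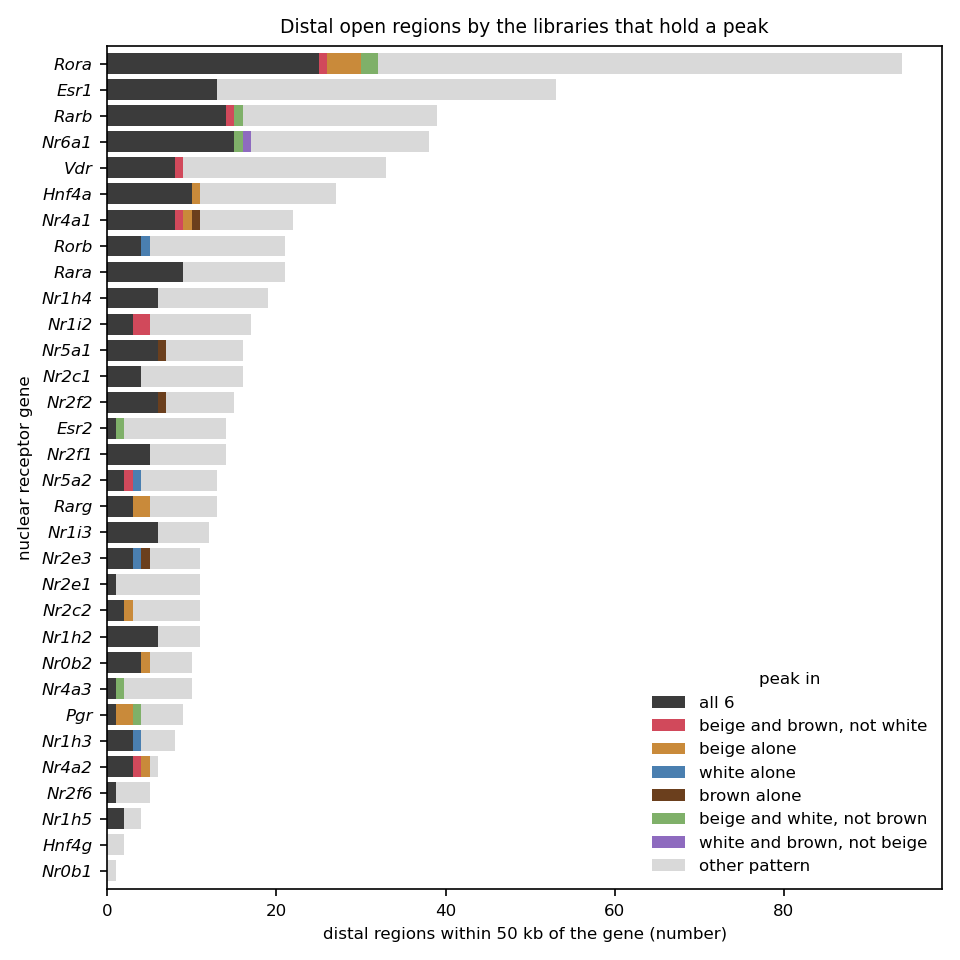
Number of distal regions within 50 kb of each of the 32 genes (bars), split by the libraries that hold a peak (colours), with all other patterns in light grey. Rora has the longest bar with 94 regions, 25 of them in all 6 libraries, and Nr0b1 the shortest with 1.

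Regions in which the lowest −log10 q among the open libraries was at least 5 numbered 18 of the 37, and these 18 are the ones described by role below. Distances are given from the 5′ end of the gene along its strand, negative upstream, and coordinates are those of mm10. Where 4 or 6 values are listed, replicate 1 of a condition comes before replicate 2.

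**Figure D3:**
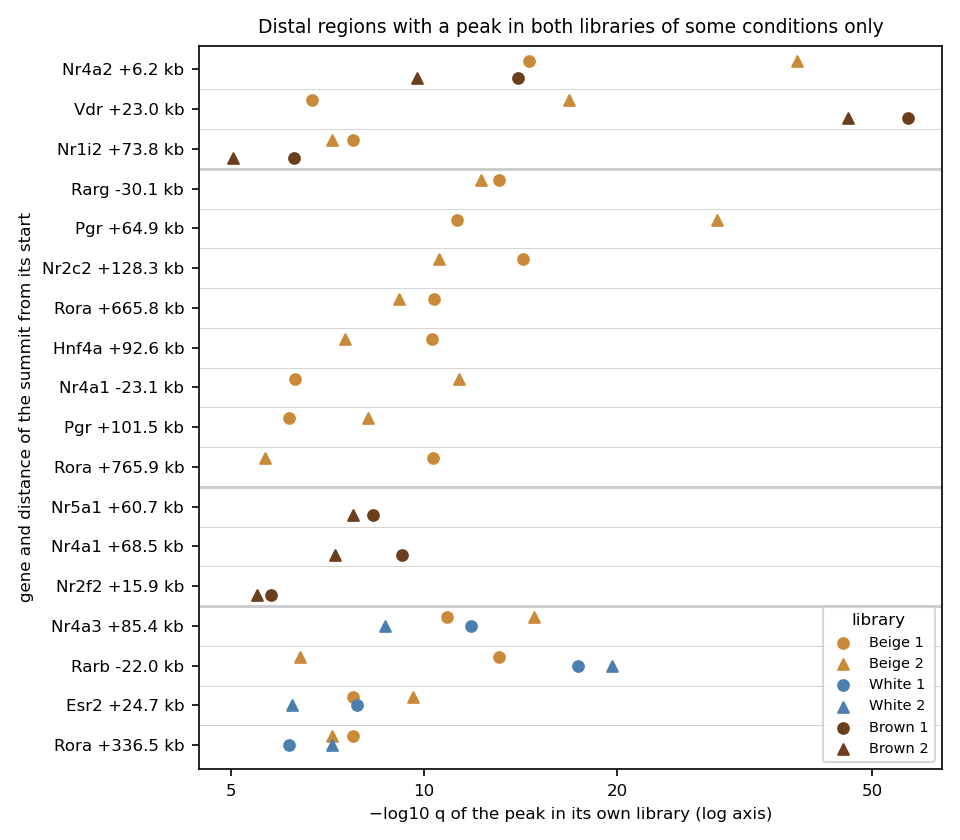
−log10 q of the peak in each library (points, log axis, colour for condition and shape for replicate) in the 18 distal regions with peaks in both libraries of some conditions and neither of the others (rows). No point of a missing condition appears in any row, and the values run from 5.03 at the Nr1i2 region to 56.9 at the Vdr region in brown replicate 1.

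Among the oxysterol receptors, the promoter of Nr1h2 (LXRβ) ranked at the percentiles 91.6 and 90.1 in beige, 83.7 and 81.2 in white and 91.3 and 91.7 in brown. That of Nr1h3 (LXRα) was at 84.1 and 82.7, 82.1 and 91.0, and 82.7 and 90.2. Both white values lay below the other 4 at Nr1h2, while the conditions overlapped at Nr1h3. Nr1h4, which encodes the bile acid receptor FXR, was open in all 6 at its first start site (−log10 q 13.6 to 42.6). Its second group of start sites, inside the gene, had a peak in both beige libraries (5.40 and 7.98) and no other. Of the 42 groups of start sites, at the 19 receptors with more than 1 group, it alone followed the conditions in this way. Groups were formed after values had been seen and were not counted over all genes, so this count is no result about the receptors. Nr1h5 (FXRβ) had no promoter peak in any library and 4 distal regions, 2 of them in all 6.

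The xenobiotic receptors act mainly in liver and gut. The Nr1i2 (PXR) promoter had a peak at −878 to −919 bp in beige 1 (−log10 q 10.8), beige 2 (10.5), white 2 (2.22) and brown 1 (4.80) and none in white 1 and brown 2. Those of white 2 and brown 1 lay nearer the threshold than both beige peaks, and Nr1i2 counted as differing between conditions at a q value under 0.00001, with lists of equal length, or without white replicate 2 or brown replicate 1. A region at 73.8 kb (chr16:38220928-38221187), in an intron of the neighbouring Gsk3b, had peaks in beige (7.76 and 7.18) and brown (6.26 and 5.03) and the nearest white summit was 5303 bp away. Repeats made up 75.1% of its summit window. Nr1i3 (CAR) had no promoter peak and 6 of its 12 distal regions in all 6 libraries, with 7 other genes in reach.

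The vitamin D receptor gene Vdr was open at its promoter in all 6 libraries, at the percentiles 63.7, 64.3, 67.2, 68.8, 53.8 and 52.5, and both brown values were the lowest. It had 33 distal regions, the highest density of the 32 genes with 21.1 in 100 kb, and 8 of them were in all 6 libraries. Part of the 33, and part of these 8, lay inside the neighbouring gene Hdac7. No background was made for the density. A region at −3.8 kb ranked at 96.7 to 98.7 in every library. An intronic region at 23.0 kb (chr15:97887414-97888109) had peaks in both beige libraries (−log10 q 6.68 and 16.8) and both brown libraries (56.9 and 45.9), at the percentiles 21.6, 58.6, 78.4 and 80.5. Neither white library had a peak there, and the nearest white summit was 2303 bp away. Of the 18 regions this one had the highest −log10 q in brown, and its sequence is shown with the others below.

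The retinoic acid receptors bind all-trans retinoic acid. Rarb ranked among the highest promoters of the set, and Rarg was open in all 6 at both of its start sites. Rara was open in all 6 at 2 of its 4 groups of start sites. At its second group the −log10 q was 56.0 and 55.5 in beige, 12.8 and 7.94 in white and 50.2 and 38.1 in brown, and at the fourth it was 43.8 and 27.8, 36.6 and 21.2, and 79.6 and 48.5. These values are not compared between libraries, since white lists had a lower median −log10 q. A region at −30.1 kb of Rarg (chr15:102287484-102287698) had peaks in beige alone (13.1 and 12.3), and the nearest summit of another library, brown replicate 1, was 7606 bp away. Repeats marked in the reference made up 86.1% of its 201-bp summit window. A region at −22.0 kb of Rarb (chr14:16841013-16841289) had peaks in beige (13.1 and 6.41) and white (17.4 and 19.7), at the percentiles 67.2, 41.1, 82.2 and 89.2, and the nearest brown summit was 27211 bp away. The inguinal libraries thus shared it and the brown ones did not have it.

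Rora and Rorb encode RORα and RORβ, which bind an AGGTCA motif with an A/T-rich start. Rora spans 734.5 kb and was open in all 6 at both start sites, with 42 to 57 peaks a library among its 94 distal regions. Its 7 regions that followed the conditions were the most of any of the 32 genes, beside the longest gene. At 665.8 kb (chr9:69319519-69319753, intron) there were peaks in beige alone (10.4 and 9.14), but a summit of brown replicate 2 lay 424 bp away. At 765.9 kb (chr9:69419593-69419804), in an intron of Ice2, beige alone had peaks (10.3 and 5.66). At 336.5 kb (chr9:68990140-68990353, intron) beige (7.76 and 7.18) and white (6.15 and 7.18) had peaks, with the nearest brown summit at 20764 bp. Rorb, known from brain and retina, was open at its first start site in all 6, at the percentiles 87.5 to 93.6, and not at its second.

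**Figure D4:**
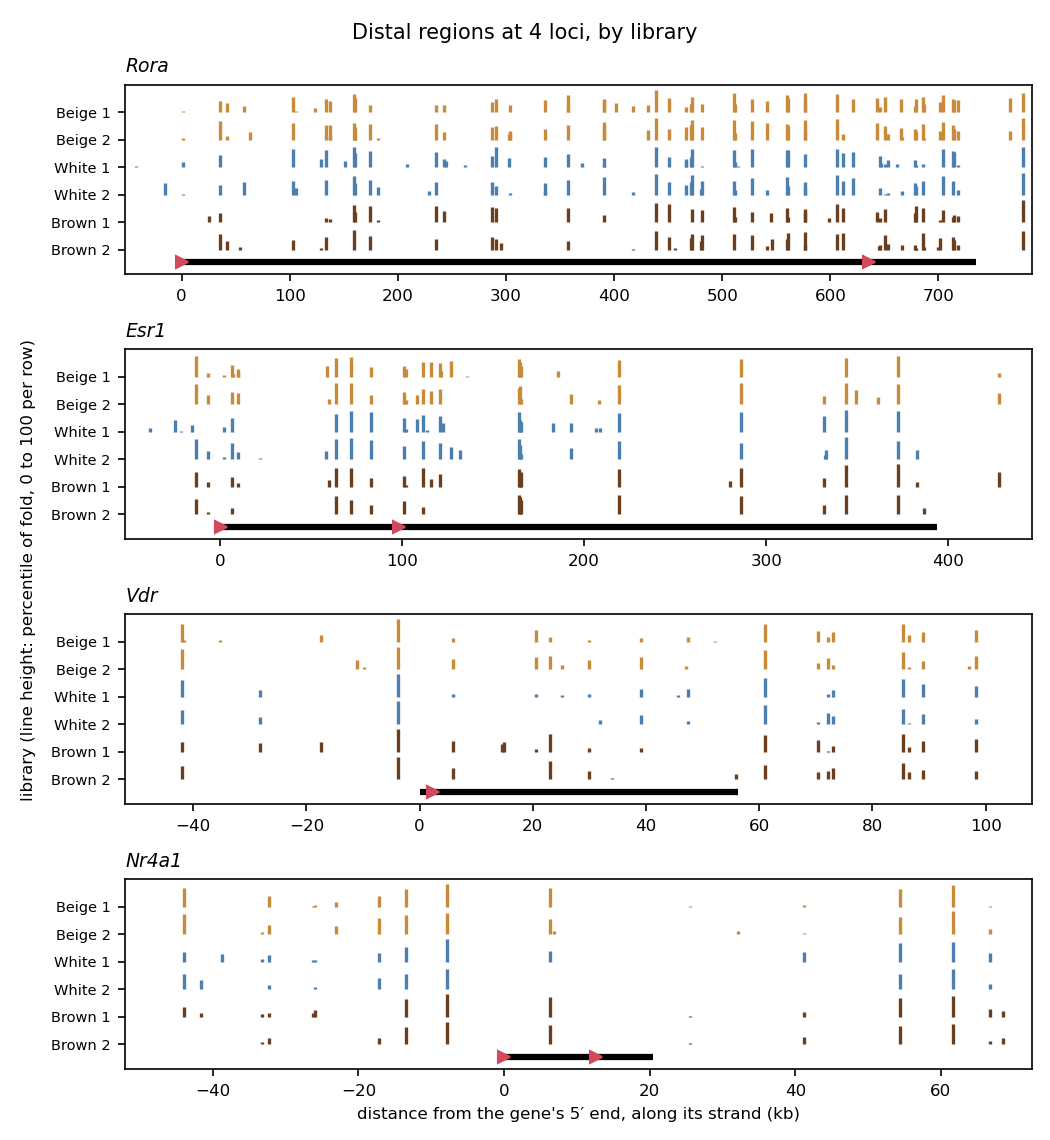
Distal regions of Rora, Esr1, Vdr and Nr4a1 in each library (rows, coloured by condition) against the distance from the 5′ end of the gene in kb, with line height for the percentile of fold (0 to 100), the gene as a black bar and its start sites as red arrowheads. At Vdr the line at 23.0 kb is present in both beige and both brown rows and absent from both white rows.

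Of the HNF4 genes, which are known for liver, kidney and gut, Hnf4a had no peak in any library at its protein-coding start sites, which lie inside the gene. With start sites of all GENCODE transcripts Hnf4a no longer counted as open in none. It had 27 distal regions, 10 of them in all 6. Its region at 92.6 kb (chr2:163599379-163599550) had peaks in beige alone (10.3 and 7.54). Hnf4g was open at its promoter in all 6 with a −log10 q of 5.16 to 11.0, and of its 2 distal regions both were in beige replicate 1 alone. The testicular receptors Nr2c1 and Nr2c2 had promoters at the percentiles 84.8 to 94.6 and 88.1 to 95.3. Nr2c2 had a region at 128.3 kb (chr6:92219557-92219747) with peaks in beige alone (14.3 and 10.6), the nearest other summit being 4738 bp away in brown replicate 2. Nr2e1, a receptor of neural stem cells, had promoter peaks in beige 1 (6.91), white 1 (5.51), white 2 (4.88) and brown 1 (4.15). Nr2e3, known from photoreceptors, had no peak at its protein-coding start site. A region 1.1 kb from the 5′ end of the gene, away from that site, had a peak in all 6 libraries (−log10 q 34.5 to 69.7, percentiles 84.9 to 94.6), and with start sites of all GENCODE transcripts the promoter counted as differing between conditions.

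Of the COUP-TF genes, Nr2f1 and Nr2f2 had the lowest ranked promoters open in all 6 libraries. At Nr2f2 (COUP-TFII) the peaks lay upstream of the second start site, at −739 to −933 bp, with a −log10 q of 16.7 and 12.5 in beige, 12.8 and 10.4 in white and 12.0 and 11.6 in brown, and the first start site had none. Nr2f2 had 15 distal regions, 6 in all 6 libraries, and a region at 15.9 kb (chr7:70350763-70350983) with peaks in brown alone (5.77 and 5.49), with a summit of beige replicate 1 at 676 bp. Nr2f1 had 5 of 14 distal regions in all 6. Nr2f6 ranked at the percentiles 63.3, 62.2, 46.9, 25.3, 62.6 and 72.5, with both white libraries below the other 4.

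The sex steroid receptor genes were open at their promoters in all 6 libraries. Esr1, which encodes estrogen receptor α, was at the percentiles 66.2 and 64.4 in beige, 80.2 and 90.4 in white and 67.3 and 53.8 in brown, so that both white values lay above the other 4. It had 53 distal regions, 13 of them in all 6 libraries and none that followed the conditions. Its peaks numbered 28 in beige 1, beige 2 and white 1, 26 in white 2, 24 in brown 1 and 17 in brown 2, which also had the shortest list. Esr2, which encodes estrogen receptor β, had an intronic region at 24.7 kb (chr12:76152463-76152938) with peaks in beige (7.76 and 9.63) and white (7.87 and 6.23) with the nearest brown summit at 24500 bp. Pgr, the progesterone receptor gene, had 1 of 9 distal regions in all 6 libraries. Its intronic region at 64.9 kb (chr9:8964588-8964834) had peaks in beige alone (11.2 and 28.6), at the percentiles 62.8 and 85.1, and the nearest other summit, of white replicate 2, was 5435 bp away. A further region in beige alone (6.15 and 8.17) lay at 101.5 kb (chr9:9001267-9001445), in an intron of Arhgap42.

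The NR4A receptors Nr4a1 (NUR77), Nr4a2 (NURR1) and Nr4a3 (NOR1) were open at their promoters in all 6 libraries. The percentiles were 77.0, 81.3, 82.7, 66.9, 82.7 and 89.5 at Nr4a1, 92.9, 87.4, 94.4, 91.8, 96.5 and 96.0 at Nr4a2, and 63.6, 51.3, 64.0, 58.9, 62.4 and 69.1 at Nr4a3. Both brown values were the highest at Nr4a2, by 1.7 points. The motif of CREB, the factor through which cAMP is known to act, is TGACGTCA, and its core is TGACG. The RefSeq promoters (GRCm38.p6, 250 bases before to 50 after the start) are shown because each of the 3 holds 4 copies of TGACG on either strand, which are in capitals. The full motif is in none of them.
Nr4a1 promoter, chr15:101266596-101266895, + strand: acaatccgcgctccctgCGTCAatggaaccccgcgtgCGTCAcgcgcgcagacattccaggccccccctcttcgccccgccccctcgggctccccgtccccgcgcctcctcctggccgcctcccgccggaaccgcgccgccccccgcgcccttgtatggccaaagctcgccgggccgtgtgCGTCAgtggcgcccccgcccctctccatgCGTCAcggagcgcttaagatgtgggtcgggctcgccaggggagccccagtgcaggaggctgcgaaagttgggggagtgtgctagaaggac
Nr4a2 promoter, chr2:57123954-57124253, − strand: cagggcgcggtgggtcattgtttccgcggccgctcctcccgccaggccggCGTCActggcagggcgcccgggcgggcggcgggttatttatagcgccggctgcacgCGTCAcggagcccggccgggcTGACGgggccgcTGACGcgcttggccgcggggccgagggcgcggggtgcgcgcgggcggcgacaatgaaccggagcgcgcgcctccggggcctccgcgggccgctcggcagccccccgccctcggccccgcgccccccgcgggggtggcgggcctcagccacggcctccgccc
Nr4a3 promoter, chr4:48045055-48045354, + strand: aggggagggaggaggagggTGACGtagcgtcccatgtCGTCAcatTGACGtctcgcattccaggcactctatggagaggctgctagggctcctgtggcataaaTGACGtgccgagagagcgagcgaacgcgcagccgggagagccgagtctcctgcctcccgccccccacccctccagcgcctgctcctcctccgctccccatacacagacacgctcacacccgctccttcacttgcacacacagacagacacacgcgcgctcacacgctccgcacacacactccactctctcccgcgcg

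At least 4 copies of TGACG were found in 68 of the 20143 promoters searched (0.338%), at least 1 copy in 24.2% and the full motif in 2.31%. TGACG holds a CpG, and the CpG ratio was 0.91 at Nr4a1, 1.04 at Nr4a2 and 0.87 at Nr4a3. The promoters searched were not matched for CpG, so these shares do not show that the copies are unusual. Over the 6 libraries the summits of the promoter peaks were at −73 to −24 bp of the RefSeq start of Nr4a1, −237 to −153 bp of that of Nr4a2 and −221 to −200 bp of that of Nr4a3. The centre of the nearest TGACG was 1 to 14 bp away at Nr4a1, 11 to 39 bp at Nr4a2 and 0 to 8 bp at Nr4a3. No background was made for these distances. The core motif was searched after values had been seen, and a match is a description and not a site of binding.

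Outside the promoters, an intronic region of Nr4a2 at 6.2 kb (chr2:57117625-57117884) had peaks in beige (14.6 and 38.1) and brown (14.0 and 9.77) and in neither white library, with the nearest white summit at 887 bp. Its percentiles were 10.9, 40.0, 9.9 and 7.9, and 55.7% of its summit window were repeats. Nr4a1 had a region at −23.1 kb (chr15:101231085-101231306), in an intron of Grasp, with peaks in beige alone (6.29 and 11.4), and one at 68.5 kb (chr15:101322668-101322918) with peaks in brown alone (9.23 and 7.26). At Nr4a3 a region at 85.4 kb (chr4:48130222-48130666), in an intron of Stx17, had peaks in beige (10.9 and 14.9) and white (11.8 and 8.70) with the nearest brown summit at 5394 bp. Nr4a2 had 6 distal regions in all and 3 of them in all 6 libraries, Nr4a1 had 8 of 22 and Nr4a3 had 1 of 10.

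Nr5a1 (SF-1), the steroidogenic factor of adrenal and gonad, had no peak at either start site, although 6 of its 16 distal regions were in all 6 libraries. With all GENCODE transcripts, a distance of 3 kb or any overlap with the promoter window, it no longer counted as open in none. A region at 60.7 kb (chr2:38653639-38653936) had peaks in brown alone (8.34 and 7.74), with a summit of white replicate 1 at 441 bp. Nr5a2 (LRH-1) was open in all 6 only at the start sites furthest into the gene, with a −log10 q of 17.4 to 34.3. Nr6a1 (GCNF) was open at its first start site at the percentiles 69.1 to 91.8 and had 15 of 38 distal regions in all 6. Of the receptors without a DNA-binding domain, which act by binding other receptors, Nr0b2 (SHP) had no promoter peak, and Nr0b1 (DAX-1) had a single one in beige 1 at a −log10 q of 2.05.

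Summit windows (201 bp of mm10, + strand) are shown for 5 of the named regions, chosen after their values were seen: those of Rarg and Pgr for a shared motif, that of Nr5a1 for a receptor motif, and those of Nr4a2 and Vdr as regions in introns of the receptor genes themselves with peaks in beige and brown and not in white. Capitals mark matches to the motifs searched.
Rarg at −30.1 kb, beige alone, chr15:102287500-102287700: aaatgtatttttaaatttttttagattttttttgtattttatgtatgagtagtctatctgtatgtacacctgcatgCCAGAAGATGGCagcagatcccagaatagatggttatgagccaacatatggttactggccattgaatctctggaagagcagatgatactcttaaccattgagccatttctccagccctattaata
Pgr at 64.9 kb, beige alone, chr9:8964611-8964811: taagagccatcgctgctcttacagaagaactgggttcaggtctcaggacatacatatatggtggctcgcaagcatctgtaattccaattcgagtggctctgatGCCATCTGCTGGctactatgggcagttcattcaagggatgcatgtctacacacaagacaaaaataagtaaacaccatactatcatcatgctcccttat
Nr5a1 at 60.7 kb, brown alone, chr2:38653733-38653933: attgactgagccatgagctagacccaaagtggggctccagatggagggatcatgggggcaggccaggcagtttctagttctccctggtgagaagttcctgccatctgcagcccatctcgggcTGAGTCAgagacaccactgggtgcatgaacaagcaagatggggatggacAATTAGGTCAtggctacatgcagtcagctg
Nr4a2 at 6.2 kb, beige and brown, chr2:57117659-57117859: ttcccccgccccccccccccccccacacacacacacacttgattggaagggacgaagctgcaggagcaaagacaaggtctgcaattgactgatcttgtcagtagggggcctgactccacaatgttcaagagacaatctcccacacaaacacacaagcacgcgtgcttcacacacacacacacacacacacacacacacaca
Vdr at 23.0 kb, beige and brown, chr15:97887566-97887766: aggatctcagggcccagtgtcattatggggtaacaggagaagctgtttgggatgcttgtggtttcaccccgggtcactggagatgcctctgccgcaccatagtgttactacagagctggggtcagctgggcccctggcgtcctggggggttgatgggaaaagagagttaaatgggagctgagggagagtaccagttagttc

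The capitals in the Rarg and Pgr windows are the core of the motif of CTCF, a chromatin architecture protein, searched as CC and AG spaced by 3 bases and GGC after 2 more. It was present in 6 of the 13 receptor regions in beige alone, against 19.0% of the 3545 distal regions of the series in beige alone and 9.18% of all distal regions. Among the 6, an Nr0b2 region at 4.1 kb had a lowest −log10 q of 2.33 and a summit of white replicate 1 at 206 bp. A Rora region at 303.4 kb had 4.66 and a summit of white replicate 2 at 183 bp. The CTCF core was in 20 of the 172 receptor regions in all 6 libraries (11.6%, against 14.1%). Of the same 13 regions, the AP-1 motif TGANTCA was in 0 and AGGTCA in 1, each against 15.5% in the series. These counts rest on few windows, and the CTCF core was singled out from the motifs searched after values had been seen. Repeats made up 86.1% of the Rarg window and 36.3% of the Pgr window. The Nr5a1 window holds the AP-1 motif TGANTCA and an AGGTCA preceded by AANT, the form that ROR proteins prefer, which was in 0.276% of all distal windows. The Nr4a2 and Vdr windows had no match.

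Over all 586 receptor regions most motif shares lay close to those of all distal windows, given in parentheses. All motifs were searched on both strands, and the motifs AAAGGTCA and TCAAGGTCA overlap AGGTCA. The last was in 15.5% of the windows (15.6% of all distal windows), the NR4A motif AAAGGTCA in 2.05% (1.5%), the SF-1 motif TCAAGGTCA in 0.512% (0.366%) and 2 copies of AGGTCA spaced by 1 base, with at most 1 mismatch, in 0.512% (0.583%). With a spacing of 4 bases the pair was in 0.512% (0.293%), and with 5 bases, or with the second copy inverted after 1 base, it was in none (0.262% and 0.0942%). TGANTCA was in 22.4% (23.2%), the C/EBP motif TTGCNNAA in 13.1% (13.4%), the EBF motif CCCNNGGG in 8.70% (8.66%), the ETS motif CCGGAAG in 1.19% (1.38%) and TGACGTCA in 0.683% (0.477%). The CTCF core was in 8.53% (9.18%), the glucocorticoid receptor palindrome in 0.853% (0.671%) and the NFI palindrome in none (0.0727%). The shares of AAAGGTCA and the rarer motifs rest on 12 or fewer receptor windows each.

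Ranks within regions open in all 6 libraries were compared after values had been seen. At 16 of the 23 promoters both libraries of a condition ranked above or below the other 4, against 55.0% of promoters in the series, and at 91 of the 172 distal regions, against 53.9%, so this pattern was common everywhere. Rara was among the 16, but its strongest peak lay at another start site in beige than in white and brown. Gaps of at least 20 points occurred at none of the 23 promoters (0.675% of promoters in the series) and at 6 of the 172 distal regions (3.24% of distal regions). These counts lay near the shares of the series and are no result about the receptors.

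The 6 regions are described singly, and no background was made for the condition involved. White libraries were involved in 3 of these 6. At 650.9 kb of Rora (chr9:69304258-69304923) the percentiles were 64.5 and 56.8 in beige, 14.5 and 4.1 in white and 56.8 and 60.2 in brown, a gap of 42.3 points. At 82.8 kb of Esr1 (chr10:4694295-4694899) white was the higher, at 84.8 and 82.3, with 43.0 and 41.1 in beige and 36.6 and 38.6 in brown, and the gap was 39.3 points. The direction of this region was that of the strongest Esr1 promoter peak, at the first of its 2 groups of start sites. At the second group, not ranked by fold, the −log10 q was 8.43 and 14.15 in beige, 13.47 and 11.57 in white and 7.83 and 7.0 in brown. At −47.6 kb of Nr1h3 (chr2:91250253-91250631) white was at 25.7 and 21.4, with 59.8, 63.6, 56.9 and 52.2 in the other 4. Beige stood above the rest at −31.6 kb of Nr2c1 (83.2 and 83.6, with 45.6 to 56.7 elsewhere) and below it at 271.4 kb of Rarb (50.4 in beige 2 and lower in beige 1, with 70.6 to 80.7 elsewhere). Beside the Nr2c1 region lay another with a peak in all 6 libraries, at −31.0 kb, where beige was not the highest. Its percentiles were 55.4 and 63.9 in beige, 60.8 and 73.9 in white and 84.9 and 78.7 in brown. Brown stood above the rest at 39.0 kb of Rara (63.5 and 62.4, with 23.2 to 40.6 elsewhere). Ranked by −log10 q in place of fold, the 6 gaps kept their direction, but those of Nr2c1 (17.7 points), Rarb (15.9) and Rara (14.1, from 21.9) fell under 20 points, and the other 3 were 29.4 to 42.6.

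**Figure D5:**
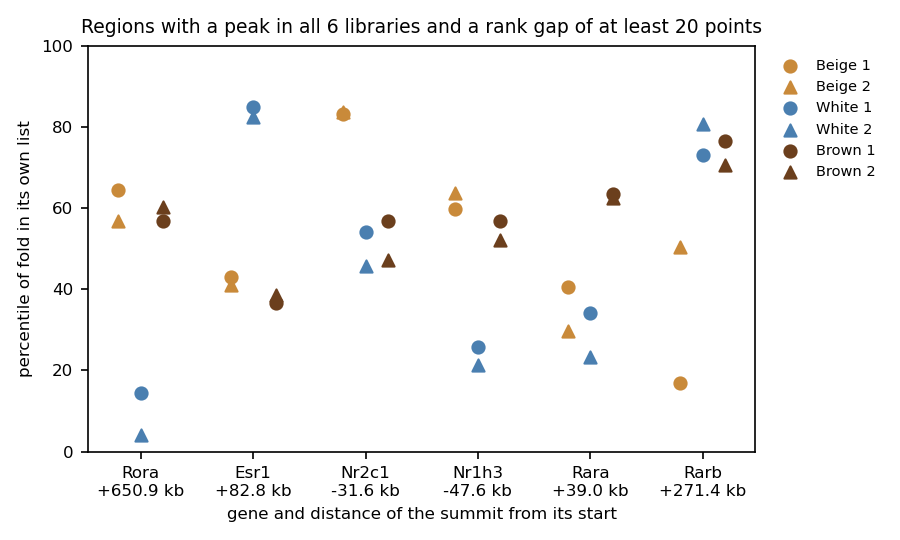
Percentile of fold enrichment in its own list (0 to 100) for each library (colour for condition, shape for replicate) in the 6 distal regions with a peak in all 6 libraries and a gap of at least 20 points between a condition and the other 4 libraries. White lies lowest at Rora and Nr1h3 and highest at Esr1.

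The receptor loci were compared between libraries by the Jaccard index, the share of covered bases that 2 libraries have in common. It was 0.604 to 0.682 for the 3 pairs of one condition and 0.567 to 0.652 for the 12 pairs of different conditions, so the ranges overlapped. The white pair, at 0.604, lay under the mean of the 4 beige and brown pairs, 0.632. Beige and white had a mean of 0.611 and white and brown of 0.597, the lowest. Over the whole genome the corresponding means were 0.603, 0.586 and 0.562, in the same order.

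Promoters of pathway genes were counted in the same way, beside the 62.4% of all genes open in all 6 libraries. All 15 coregulators, such as Ncoa1, Ncor1 and Med1, had a promoter peak in all 6 libraries. Of 21 enzymes and carriers of receptor ligands, 14 were open in all 6, among them the retinoic acid synthesising Aldh1a1, Aldh1a2 and Aldh1a3, and Cyp24a1, which degrades vitamin D. Among those open in none were Cyp19a1, the aromatase gene, and the retinoic acid hydroxylase genes Cyp26a1 and Cyp26c1, while Cyp26b1 was open in all 6. Of 14 textbook target genes, 8 were open in all 6, including the LXR targets Abca1, Abcg1, Srebf1, Mylip, Lpcat3 and Scd1. Fgf15, an FXR target of the gut, and Greb1, an estrogen receptor target, were the other two, with a −log10 q of 14.4 to 44.6 and 6.14 to 18.6. Slc51a, a further FXR target, had a peak in beige replicate 2 alone. The 5 open in none were Abcb11, Cyp7a1, Cyp3a11, Cyp2b10 and Slc51b, known as targets of FXR, LXR, PXR and CAR in liver or gut. None of these 50 genes had a promoter peak that differed between conditions, which at 1.85% of all genes is no result about them.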

How the data were processed

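The data were 1 ATAC-seq peak list for each of 6 libraries. The submitters' processing notes name mm10, BWA, SAMtools and MACS2, and the authors called peaks in each library. The deposited fold enrichment is a ratio to the library's own background, the −log10 q, also deposited, belongs to the summit, and the summit offset (other unit) gives its position. All peaks had a q value under 0.05. The lists hold no read counts, so depth is not given here. Several summits can share an interval, which was counted once, at its highest −log10 q. Regions were merged at an overlap of 1 bp, with start sites of protein-coding transcripts in the basic set of GENCODE M21. Motifs were searched on both strands within 100 bp of the strongest summit in GRCm38.p6. Scripts ran in Python 3.11.15 with pandas 2.3.3 and NumPy 2.4.6, and classes and motif matches were tested on simulated data. The members and lists were chosen with earlier results of these data known. All 32 genes were accounted for. Regions were named for genes with regions that followed the conditions, at most 3 a gene, with a lowest −log10 q of at least 5. The 5 genes with most regions in all 6 libraries were Rora, Nr6a1, Rarb, Esr1 and Hnf4a. Groups of start sites (over 1 kb apart), rank gaps, CpG ratios, nearest summits and the TGACG core were added after values had been seen. The study describes its ATAC-seq replicates as biological ones, the brown libraries are not described there, and the labels do not state whether the 2 cultures of a condition came from separate animals. HOMER and the other data of the study were not used here. The value of 1 gene in the list of ligand enzymes and carriers is not reported here.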

Additional observations from a re-analysis of the deposited data

How the results depend on the processing

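No paired analysis was possible because the comparisons hold counts and ranks without any test. The 10 counts were recomputed under 12 settings that kept all libraries, and 62 of the 84 values stayed within 1.5 times the reported count. Promoters open in all 6 libraries stayed at 22 to 25 of the 32. Promoters open in none came to 3 with all GENCODE transcripts or a distance of 3 kb. With all transcripts these were Nr1h5, Nr1i3 and Nr0b2, and at 3 kb they were Nr1h5, Hnf4a and Nr0b2. The count of promoters that differed between conditions, 0 as reported, was 1 in 5 settings: Nr1i2 at a q value under 0.00001 and with equally long lists, Nr2e3 with all transcripts, Nr1i3 at 3 kb and Nr2e1 at 500 bp. Distal regions in all 6 libraries were 265 with a reach of 100 kb and 109 where the nearest start site had to be a receptor's. Beige alone was 6 at a reach of 20 kb, 20 at 100 kb and 5 by nearest start site. Brown alone was 1 at 20 kb, 2 by nearest start site and 7 with equally long lists or an overlap of 50% of both peaks. Beige and brown without white was 5 with equally long lists, and beige and white without brown was 4 at 20 kb. White and brown without beige was 0 at a q value under 0.01 and 2 under 0.00001, with equally long lists and at an overlap of 50%.

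Leaving out each library in turn gave 23 promoters open in all, 6 to 7 open in none and 0 to 2 differing. It gave 176 to 188 distal regions in all libraries, 16 to 55 in beige alone, 4 to 55 in white alone, 4 to 32 in brown alone, 10 to 24 in beige and brown, 9 to 20 in beige and white and 1 to 6 in white and brown. By construction, a condition then rests on 1 library. Peaks carry no depth, a peak list cannot show that chromatin was closed, and assignment by distance does not name a target gene.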
